A study of Mus musculus with 180 samples.

Results

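Momelotinib, a clinical kinase inhibitor (CKI) of JAK1 and JAK2, was compared with its solvent DMSO in mouse macrophages stimulated with LPS, the bacterial lipopolysaccharide that TLR4 senses. The comparison holds 9 of the 180 RNA-seq samples of the series, 3 with Momelotinib and 6 with DMSO, and 12714 of the 45070 genes in the table, those whose normalized values averaged 10 or more across the series. The cells were bone marrow-derived macrophages of wild type male C57/BL6 mice aged 6 to 8 weeks, and all of them, DMSO samples included, received LPS at 10 ng/ml for 2 h after 1 h with the CKI or DMSO alone. No unstimulated samples entered the comparison, so every value describes cells that were already responding to LPS. DMSO samples are labelled as 2 sets of 3, named set 1 and set 2 here, and it is not given which CKIs belong to which. The samples of each group are numbered from 1 to 3, as biological replicates.

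TLR4 signals through the adaptor MyD88 to NF-kB and the MAP kinases, and through the adaptor TRIF to the kinases TBK1 and IKBKE, which phosphorylate IRF3 so that Ifnb1, the gene for interferon beta, is switched on. Secreted interferon beta then acts on its receptor IFNAR on the same and on neighbouring cells, where the Janus kinases JAK1 and TYK2 phosphorylate STAT proteins and the interferon-stimulated genes (ISGs) follow. Momelotinib is approved for myelofibrosis and is also known to bind TBK1, IKBKE and the BMP receptor ACVR1, so its known targets lie on both sides of interferon beta secretion.

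All 10 macrophage markers on the list checked, such as Adgre1, Csf1r and Cd68, passed the filter and none of them was called different, and their summed normalized values ran from 103314 to 218588 with DMSO and from 130564 to 150705 with Momelotinib. Neutrophil markers summed to 432 to 1293 with DMSO and to 637 to 1017 with Momelotinib. The lists for T and NK, B, dendritic, stromal, erythroid and mast cells each summed to at most 180 in any of the 9 samples, with Pax5, Hbb-bs, Mcpt8, Fcer1a and Tpsab1 at 0 in all of them. In bulk RNA, fewer cells of a type and less RNA per cell cannot be told apart. The normalized values of a sample summed to between 9481416 and 11094387, and mitochondrial transcripts took a mean of 1.15% of them in both groups. Between DMSO set 1 and DMSO set 2, limma called 0 genes at an adjusted p-value under 0.05, and 310 genes (2.44%) had an unadjusted p-value under 0.05.

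Momelotinib changed few genes beyond the spread between replicates. Of the 12714 genes tested, 48 (0.378%) were higher and 52 (0.409%) were lower than with DMSO at an adjusted p-value under 0.05, 0.787% in all, and these are called DEGs here. Genes were tested by limma after the transformation log2(normalized value + 1), so that a log2 fold change of 1 is a doubling and changes of genes with low values are understated. The median change among the DEGs was 0.72 upward and 0.85 downward on the log2 scale, and 13 and 15 of them changed by at least 1. In 45 of the 48 higher (0.354% of all genes) and 49 of the 52 lower DEGs (0.385%), the 3 Momelotinib samples lay outside the range of the 6 DMSO samples, a separation that 472 (3.71%) and 183 (1.44%) of all genes showed. Without adjustment, 10.4% of all genes had a p-value under 0.05. Same-numbered samples deviated together, and a fit blocked on that number called 226 genes (1.78%), 139 (1.09%) higher and 87 (0.684%) lower. Rescaling every sample by the median of ratios moved the median log2 fold change of all genes from 0.11 to 0.02 and gave 24 higher and 74 lower DEGs, with all 52 falls and 24 of the 48 rises among them. Single libraries weighed on these counts, since the 100 DEGs became 26 or 32 without Momelotinib replicate 2 or 3, 61 without Momelotinib replicate 1, and 60 or 51 without replicate 2 of DMSO set 1 or set 2. With only the compared groups in the fit, so that the spread was not estimated from the other CKIs, 5 genes were called.

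**Figure D1:**
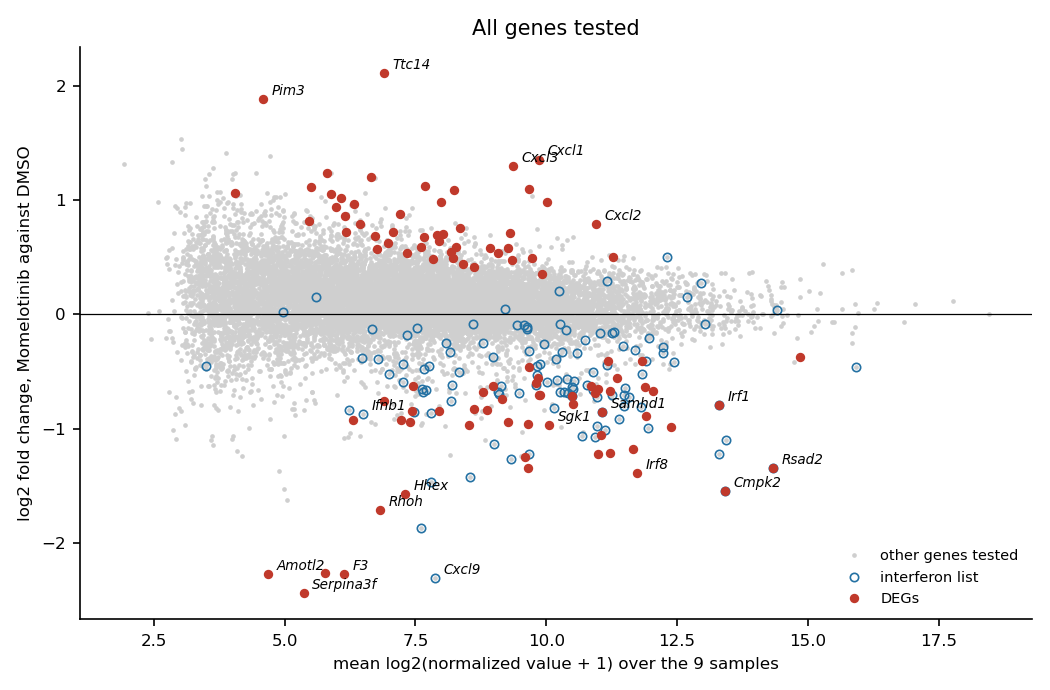
Log2 fold change of Momelotinib against DMSO (y axis) plotted against the mean log2(normalized value + 1) over the 9 samples (x axis) for the 12714 genes. Red points are the 100 DEGs and blue rings the 109 tested members of the interferon list, 100 of which lie below 0.

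Most measured genes of the interferon response had lower values with Momelotinib, and a few of them passed the test. A list of 114 interferon genes, ISGs and their regulators had 109 members past the filter, and Ifna1, Ifna2, Ifna4, Ifna5 and Mnda were not tested. Of the 109, 5 fell (4.59%, against 0.409% of all genes), 0 rose and 104 did not pass the test. The list does not hold every gene that interferons induce, and Irf8, which fell, is not on it. Their median log2 fold change was -0.53, while that of all genes was 0.11, and 100 of them (91.7%) were below 0, as were 31% of all genes. With the replicate block 12 of the 109 (11%) were lower, against 0.684% of all genes. The number that fell was 8 after scaling by the median of ratios and 11 without replicate 3 of DMSO set 1, while it was 1 without Momelotinib replicate 2 or without replicate 3, and 3 without replicate 2 of DMSO set 1 or of set 2. With only the compared groups in the fit, 0 of the 109 fell.

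The 2 largest falls past the test on the list were neighbours on chromosome 12. Rsad2 (chr12:26442743-26456452 in mm10, minus strand) encodes viperin, an antiviral enzyme that makes a chain-terminating nucleotide, and Cmpk2 (chr12:26469215-26479837, plus strand), a mitochondrial nucleotide kinase, starts 12.8 kb away. The normalized values of Rsad2 were 33559, 34143 and 18749 in DMSO set 1, 36278, 31918 and 20324 in DMSO set 2, and 15453, 9492 and 9389 with Momelotinib. All 3 Momelotinib samples were below all DMSO samples, and replicate 3 was the lowest of each DMSO set. The mean went from 29162 ± 7602 (SD, n = 6) to 11445 ± 3472 (SD, n = 3), a log2 fold change of -1.34 (SE 0.29, adjusted p = 0.00358 by limma). Without Momelotinib replicate 2 or 3 the adjusted p of Rsad2 was 0.103 or 0.0990. Cmpk2 had 13457, 20974 and 10956 in DMSO set 1, 12160, 36530 and 10614 in set 2, and 6817, 4705 and 4803 with Momelotinib, so that the highest Momelotinib sample was below the lowest DMSO sample although the DMSO samples themselves were spread widely. Its log2 fold change was -1.54 (SE 0.39, adjusted p = 0.0221 by limma), and the call was lost without Momelotinib replicate 2 or 3 or without replicate 2 of either DMSO set, with adjusted p-values of 0.207 and 0.218 for the former pair.

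The 3 other members that fell act at different steps. Samhd1, a triphosphohydrolase that lowers the nucleotide supply of viruses, had 2665, 2972 and 2206 in DMSO set 1, 2563, 3367 and 2163 in set 2, and 1618, 1399 and 1354 with Momelotinib. The groups were well apart, and the fall of 0.85 on the log2 scale (SE 0.17, adjusted p = 0.00147 by limma) was called with any 1 library left out. Irf1, a transcription factor induced by interferons and NF-kB, had 12037, 13120 and 11802 in DMSO set 1, 11146, 14275 and 10687 in set 2, and 8427, 6075 and 6628 with Momelotinib. It fell from 12178 ± 1322 (SD, n = 6) to 7043 ± 1230 (SD, n = 3), by 0.80 on the log2 scale (SE 0.19, adjusted p = 0.0103 by limma, and 0.207 or 0.142 without Momelotinib replicate 2 or 3). Ddx58, the gene of the RNA sensor RIG-I, had a DMSO range of 1171 to 2077 and Momelotinib values of 1222, 1009 and 909, so its groups overlapped. Its fall of 0.72 on the log2 scale (SE 0.19, adjusted p = 0.0309 by limma) was lost without Momelotinib replicate 2 or 3 (adjusted p = 0.207 or 0.427) and without replicate 1 or 2 of either DMSO set.

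By role, the IFIT proteins, viperin and MX GTPases had the lowest median, -1.07 over 15 tested members. Of these, Rsad2 and Cmpk2 fell (13.3%, against 0.409% of all genes). Ifit2, an inhibitor of viral translation, ranged from 6662 to 23461 with DMSO and had 8699, 5119 and 4268 with Momelotinib (log2 fold change -1.22, adjusted p = 0.0863 by limma and 0.00854 with the replicate block). Mx1 had a log2 fold change of -1.07 (adjusted p = 0.262 by limma). The 15 GBP and IRG GTPases, which attack vacuoles holding pathogens, had a median of -0.73 with all 15 below 0 and 0 past the test, and the lowest was Iigp1 at -1.87 (adjusted p = 0.0973 by limma, 0.0348 with the block). Among 6 STAT and IRF factors 1 fell, Irf1 (16.7%, against 0.409% of all genes), and the median was -0.44. Irf8, which interferons also induce and which also fell, was not among these factors. The 12 sensors of foreign nucleic acid had a median of -0.54, and Ddx58 was the DEG among them (8.33%).

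Among the remaining roles of several genes, the OAS genes lay nearer to 0. The medians of the others were close to those of the STAT and IRF factors and of the sensors. The 8 OAS genes, whose products make the messenger that activates RNase L, had a median of -0.16 and 0 DEGs. The 7 genes of the ISG15 system, a ubiquitin-like modifier with its ligases, had a median of -0.51 and 0 DEGs. Isg15 itself, at -0.22 (adjusted p = 0.928 by limma), ranged from 1096 to 3901 with DMSO and had 2163, 1282 and 1347 with Momelotinib, so the groups overlapped fully. Of 5 chemokines of the interferon response 0 passed the test, and their median was -0.46. Cxcl9, a ligand of CXCR3 on T cells, was the furthest below 0, with 499, 599 and 195 in DMSO set 1, 759, 413 and 225 in set 2, and 142, 48 and 75 with Momelotinib (log2 fold change -2.31, SE 0.69, adjusted p = 0.100 by limma, 0.0282 with the block). All 3 values were under the lowest DMSO sample. Cxcl10, another ligand of CXCR3, differed by -0.46 (adjusted p = 0.631 by limma) and Ccl5 by -0.08 (adjusted p = 0.959). Among 40 other ISGs, with a median of -0.45, Samhd1 fell (2.5%, against 0.409% of all genes). Cd274 of the same role, which encodes the checkpoint ligand PD-L1, had a log2 fold change of -1.01 (adjusted p = 0.0863 by limma, 0.0155 with the block).

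Ifnb1, the ligand at the head of the response, had 129, 99 and 75 in DMSO set 1, 262, 79 and 86 in set 2, and 55, 65 and 58 with Momelotinib. The Momelotinib samples were close together and all under the lowest DMSO sample, while replicate 1 of DMSO set 2 stood far above the others. The log2 fold change of -0.87 (SE 0.40) did not pass the test (adjusted p = 0.414 by limma, 0.215 with the replicate block), and it was -0.62 without that sample. An exact two-sided permutation test of this gene alone gave p = 0.0595 over all 84 arrangements and, kept within replicate numbers, p = 0.0370 over 27, the smallest that the latter can give.

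**Figure D2:**
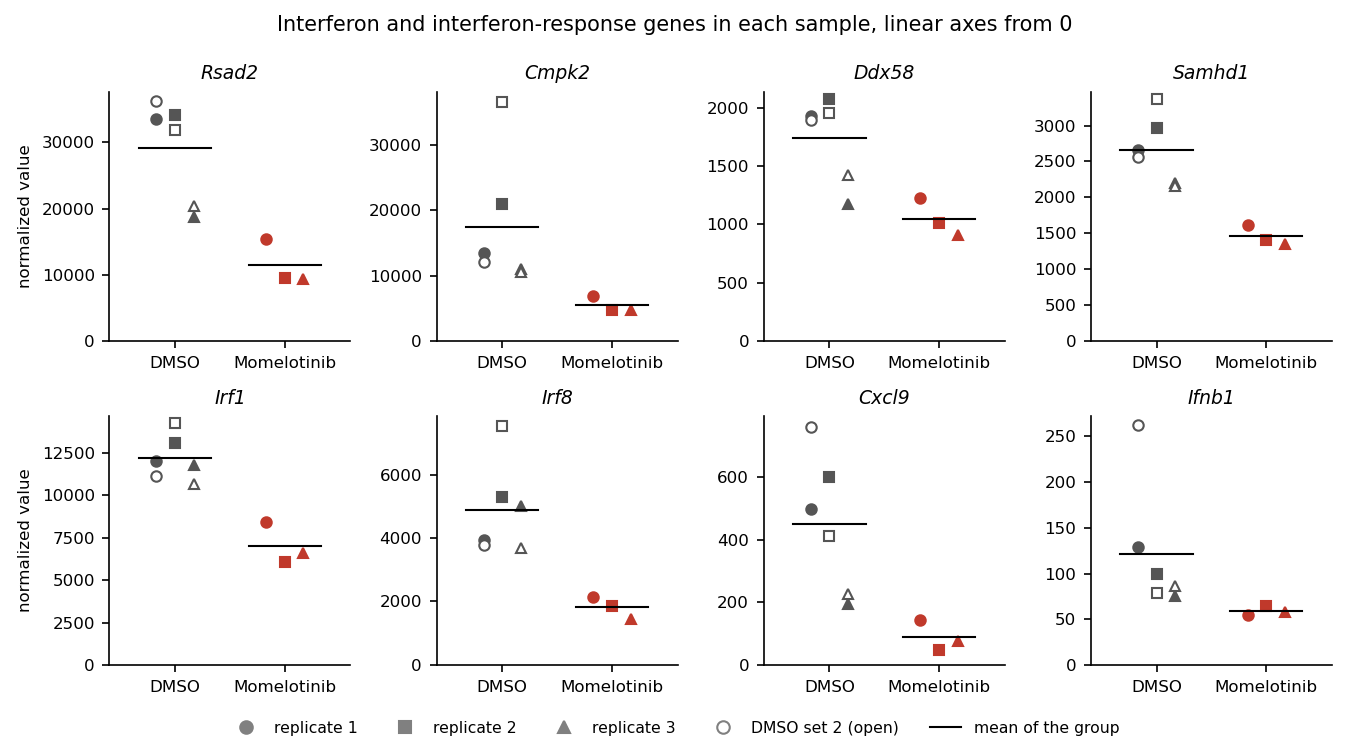
Normalized value (y axes, linear from 0) of 8 interferon-related genes in each of the 6 DMSO and 3 Momelotinib samples. Circles, squares and triangles are replicates 1, 2 and 3, open symbols are DMSO set 2 and black lines are group means, and replicate 3 of DMSO, as in Rsad2 at 18749 and 20324, lies nearest to the Momelotinib samples in several genes.

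Compared within replicate numbers, the interferon list was below DMSO in each of the 3 pairs. The median of the 109 members was -0.45 for replicate 1, -0.86 for replicate 2 and -0.29 for replicate 3 on the log2 scale. Of the 109 genes, 75 (68.8%) were below the DMSO mean of their number in all 3, which was so for 1125 (8.85%) of all genes. In Rsad2 the 3 differences were -1.18, -1.80 and -1.06.

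Promoter letters are shown for genes on which these results turn, to let the sites for the interferon and NF-kB pathways be seen. Windows from RefSeq (GRCm38.p6), 300 bases around each start, could be matched by symbol to 9131 of the 12714 genes and were searched on both strands for an ISRE-type motif (GAAA, any 2 bases and GAAA, the kind bound by complexes of STAT proteins with IRF9), a GAS-type motif (TTCNNNGAA, the kind bound by STAT dimers) and a kappaB-type motif (GGG, any 3 bases and TTCC). An ISRE-type match stood in 4.14% of all these promoters, in 41 of 85 (48.2%) from the interferon list, in 7 of 41 (17.1%) of the DEGs that fell and in 1 of 43 (2.33%) of those that rose. GAS-type matches stood in 8.28% of all and in 8 of 41 (19.5%) of the DEGs that fell, Irf1, Irf8, Cish and Samhd1 included. Capitals mark the matches in these stretches, which are written in the direction of the gene. For Rsad2 (chr12:26456493-26456582, minus strand) the ISRE-type match lies on the opposite strand and begins 120 bases before the start, for Irf1 (chr11:53769894-53769983, plus strand) the GAS-type match begins 90 bases before it, for Irf8 (chr8:120736168-120736257, plus strand) there are 2 GAS-type matches at 171 and 153, and for Ifnb1 (chr4:88522830-88522919, minus strand) a kappaB-type match lies at 116. Irf1 and Irf8, each with 2 promoters in the table, were chosen after their values were seen.
Rsad2: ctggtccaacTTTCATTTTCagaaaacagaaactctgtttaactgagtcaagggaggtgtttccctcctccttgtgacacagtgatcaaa
Irf1: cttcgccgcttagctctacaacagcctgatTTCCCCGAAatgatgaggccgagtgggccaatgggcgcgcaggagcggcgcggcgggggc
Irf8: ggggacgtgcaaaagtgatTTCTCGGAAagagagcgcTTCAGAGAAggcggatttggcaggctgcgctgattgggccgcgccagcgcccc
Ifnb1: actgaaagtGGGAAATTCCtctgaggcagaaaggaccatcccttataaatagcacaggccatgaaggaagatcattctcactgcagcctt

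Outside the interferon list, most genes of the JAK-STAT pathway did not pass the test. Of 36 tested members 2 fell (5.56%, against 0.409% of all genes), Il10ra and Cish, 0 rose, and the median log2 fold change was -0.14. Of the 36, 25 (69.4%) were below 0, as were 31% of all genes. In 11.1% of them all 3 Momelotinib samples lay below all 6 DMSO samples, against 1.44% of all genes. Il10ra, the ligand-binding chain of the IL-10 receptor, had 4873, 5360 and 4237 in DMSO set 1, 4822, 6167 and 4206 in set 2, and 3603, 2979 and 2737 with Momelotinib, with no overlap (log2 fold change -0.67, SE 0.15, adjusted p = 0.00477 by limma). Cish, a feedback inhibitor induced by STAT5, ranged from 1993 to 2571 with DMSO and had 1616, 1391 and 1260 with Momelotinib, again with no overlap (log2 fold change -0.69, SE 0.18, adjusted p = 0.0344 by limma). The call of Il10ra was lost without Momelotinib replicate 2 or 3, and that of Cish without any of the 3 or without replicate 1 or 2 of DMSO set 1 or replicate 2 of set 2. Other feedback inhibitors did not pass the test, with log2 fold changes of -0.50 for Socs1, whose DMSO samples ranged from 618 to 5735, and -0.16 for Socs3.

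The transcripts of the kinases that Momelotinib is known to bind did not pass the test. Jak1, Jak2, Jak3 and Tyk2 had log2 fold changes of -0.16, -0.15, -0.05 and 0.05, and Tbk1 and Ikbke had -0.19 and 0.09. Acvr1 had 24, 26 and 28 with Momelotinib against 34 to 41 with DMSO, without overlap but with an adjusted p of 0.445 by limma. Of 13 genes for the kinases and adaptors of IRF3 activation 0 passed the test, and their median was 0.06. Of the 6 tested targets and feedback genes of BMP signalling, 1 rose (16.7%, against 0.378% of all genes), Id3, a dominant-negative partner of E proteins. It had 800, 733 and 906 in DMSO set 1, 951, 579 and 1035 in set 2, and 1534, 1364 and 2049 with Momelotinib (log2 fold change 0.99, SE 0.24, adjusted p = 0.0202 by limma), and the call was lost without any of the 3 Momelotinib libraries or without replicate 2 of DMSO set 2. Its relative Id1 had 67, 93 and 182 with Momelotinib against 29 to 72 with DMSO (log2 fold change 1.24, adjusted p = 0.279 by limma). Of the 6 genes, 2 had log2 fold changes below 0 without passing the test. Bambi was 1 of these, with differences within replicate numbers of -0.84, -0.99 and -0.49.

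**Figure D3:**
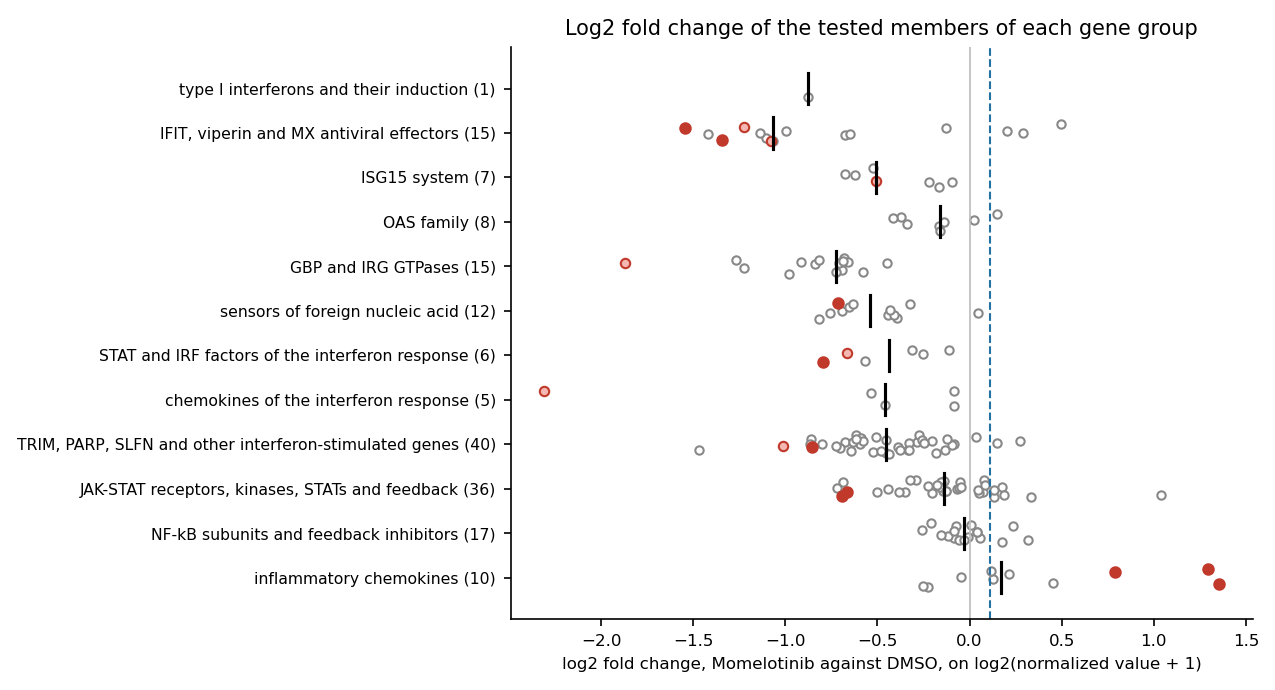
Log2 fold change of Momelotinib against DMSO (x axis) for each tested member of the 9 roles of the interferon list and of the JAK-STAT, NF-kB and inflammatory chemokine lists (rows). Filled points are DEGs, pale points are DEGs only with the replicate block, black bars are medians and the dashed line is the median of all genes (0.11), and the medians of all interferon roles lie to the left of it.

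The 3 neutrophil-attracting chemokines Cxcl1, Cxcl2 and Cxcl3, which all act on CXCR2 and lie on chromosome 5 within a stretch from 90786101 to 90905938, rose with Momelotinib. They were the DEGs among 10 inflammatory chemokines tested, 3 of which rose (0.378% of all genes did) and 0 fell. Cxcl1 had 651, 622 and 746 in DMSO set 1, 640, 630 and 786 in set 2, and 2142, 1356 and 1782 with Momelotinib. Its mean went from 679 ± 69.1 (SD, n = 6) to 1760 ± 393 (SD, n = 3), a log2 fold change of 1.35 (SE 0.19, adjusted p = 4.04e-07 by limma). Cxcl3 had 405, 544 and 589 in DMSO set 1, 313, 558 and 607 in set 2, and 1182, 1178 and 1248 with Momelotinib. With a log2 fold change of 1.29 (SE 0.20, adjusted p = 7.93e-06 by limma), its mean was the highest of all 59 groups of the series. Cxcl2 had 1496, 1705 and 1763 in DMSO set 1, 1328, 1842 and 1808 in set 2, and 2878, 2704 and 2973 with Momelotinib (log2 fold change 0.79, SE 0.17, adjusted p = 0.00359 by limma, lost without Momelotinib replicate 3). In none of the 3 genes did the groups overlap. None of the other 7 passed the test, with Ccl2, Ccl3 and Ccl4 at -0.05, -0.23 and -0.25 and Ccl7, Ccl9, Cxcl16 and Ccl22 at 0.12, 0.11, 0.21 and 0.45.

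The promoters of all 3 hold kappaB-type matches, which 7.74% of all promoters matched have and 5 of 43 (11.6%) of the DEGs that rose. They are shown, chosen after the values were seen, from 110 to 21 bases before each start on the plus strand of chromosome 5 (GRCm38.p6, chr5:90891135-90891224 for Cxcl1, chr5:90903789-90903878 for Cxcl2 and chr5:90785991-90786080 for Cxcl3), with matches on either strand in capitals and overlapping matches run together.
Cxcl1: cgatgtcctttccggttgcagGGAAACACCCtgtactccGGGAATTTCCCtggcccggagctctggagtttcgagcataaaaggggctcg
Cxcl2: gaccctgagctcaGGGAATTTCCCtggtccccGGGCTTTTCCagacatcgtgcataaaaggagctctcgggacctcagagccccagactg
Cxcl3: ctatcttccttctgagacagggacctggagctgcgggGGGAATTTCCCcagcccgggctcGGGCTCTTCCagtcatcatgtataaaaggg

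The NF-kB genes and most other inflammatory genes did not pass the test. Of 17 NF-kB subunits and feedback inhibitors 0 passed the test, with a median of -0.03, and Nfkbia, the inhibitor that NF-kB induces, had a log2 fold change of 0.04. Of 9 inflammatory cytokines and receptors 0 passed, with Tnf at 7962, 8628 and 8244 against a DMSO range of 6668 to 8932, and Il1b at 6172, 4367 and 4172 against 2842 to 6751, both overlapping. Of 8 effector enzymes and mediators F3, the gene of tissue factor that starts coagulation, fell (12.5%, against 0.409% of all genes). F3 had 121, 150 and 102 in DMSO set 1, 112, 151 and 85 in set 2, and 33, 18 and 22 with Momelotinib. The groups were far apart (log2 fold change -2.27, SE 0.32, adjusted p = 4.04e-07 by limma). Saa3, the gene of an acute phase protein, had 2007, 1025 and 1268 against a DMSO range of 442 to 860 (log2 fold change 1.04, adjusted p = 0.438 by limma), and Nos2, the inducible nitric oxide synthase, was at -0.47 (adjusted p = 0.871 by limma).

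Among 17 immediate early factors Atf3, a stress-induced repressor that restrains cytokine genes, was the DEG (5.88%, against 0.409% of all genes lower). It had 5937, 7136 and 6882 in DMSO set 1, 5695, 8642 and 6233 in set 2, and 3145, 3333 and 3650 with Momelotinib. This fall of 0.99 on the log2 scale (SE 0.13) had, with that of the kinase Sgk1, the smallest adjusted p-value of the comparison (4.26e-08 by limma for both). Sgk1 had 1300, 1392 and 1259 in DMSO set 1, 1479, 1287 and 1322 in set 2, and 605, 707 and 747 with Momelotinib, and fell by 0.97 (SE 0.13). Neither gene overlapped between groups, and both calls were kept with any 1 library left out.

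Several other transcription factors and signalling genes fell. Irf8, which drives monocyte and dendritic cell development and is induced by interferons, had 3944, 5289 and 5012 in DMSO set 1, 3786, 7541 and 3680 in set 2, and 2152, 1871 and 1446 with Momelotinib. All 3 values lay under the DMSO range (log2 fold change -1.39, SE 0.31, adjusted p = 0.00477 by limma, lost without Momelotinib replicate 2 or 3). Mafk, a small MAF protein, had 1287, 1138 and 1036 with Momelotinib against 2144 to 4189 (log2 fold change -1.22, SE 0.20, adjusted p = 1.49e-05 by limma). Arid5a, which stabilizes Il6 mRNA, fell by 1.05 (adjusted p = 0.000212), while Il6 itself, at 476, 222 and 282 against 337 to 757, was not past the test (log2 fold change -0.72, adjusted p = 0.592 by limma). Pml, the organizer of nuclear bodies, fell by 0.94 (adjusted p = 0.00233 by limma) with 377, 408 and 416 against 498 to 1113. Hhex, a homeobox factor, fell by 1.57 (adjusted p = 0.00401 by limma, lost without Momelotinib replicate 2). Rhoh, a GTPase-deficient small G protein of blood cells, had 72, 44 and 40 against 119 to 233, and its mean was the lowest of all 59 groups (log2 fold change -1.71, adjusted p = 0.00043 by limma).

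The largest fall by fold was in Serpina3f, a protease inhibitor, with 85, 104 and 38 in DMSO set 1, 86, 94 and 48 in set 2, and 25, 6 and 12 with Momelotinib (log2 fold change -2.44, SE 0.55, adjusted p = 0.00642 by limma, lost without Momelotinib replicate 2 or 3). Serpina3g of the same cluster fell by 2.26 (adjusted p = 0.0321, lost in 6 of the 9 fits without 1 library, those without each Momelotinib library among them), and reads shared between these closely related genes could have been split in counting. Amotl2, a scaffold of the Hippo pathway, had 17, 7 and 4 against 25 to 84 (log2 fold change -2.27, adjusted p = 0.00176 by limma, 0.145 without Momelotinib replicate 3). Setdb2, a histone methyltransferase gene, fell by 1.34 (adjusted p = 0.0211 by limma, lost without Momelotinib replicate 2 or 3 or replicate 2 of either DMSO set), and the predicted gene Gm45935 overlaps it on the same strand, so their values are not separate.

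Of the rises, that of Ttc14, a tetratricopeptide repeat gene, was the largest. It had 95, 72 and 28 in DMSO set 1, 87, 169 and 51 in set 2, and 296, 353 and 304 with Momelotinib, the highest mean of the 59 groups and all above the DMSO range (log2 fold change 2.11, SE 0.34, adjusted p = 1.46e-05 by limma). Pim3, a survival kinase, had 17, 10 and 10 in DMSO set 1, 16, 31 and 11 in set 2, and 54, 54 and 62 with Momelotinib (log2 fold change 1.89, SE 0.41, adjusted p = 0.00401 by limma, lost without Momelotinib replicate 3). Its normalized values are low, so counting error is large there.

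Receptors were among the other rises. Adora2b, the low-affinity adenosine receptor, had 642, 568 and 754 in DMSO set 1, 540, 571 and 768 in set 2, and 1161, 1595 and 1362 with Momelotinib, with no overlap (log2 fold change 1.10, SE 0.23, adjusted p = 0.00266 by limma, lost without Momelotinib replicate 2). Ptger2, the EP2 receptor for prostaglandin E2, rose from a range of 177 to 262 to 345, 379 and 362 (log2 fold change 0.70, adjusted p = 0.00492 by limma, lost without Momelotinib replicate 2 or 3). Both receptors raise cyclic AMP in macrophages. Pdpn, the surface mucin podoplanin, rose from 170 to 261 to values of 555, 351 and 322 (log2 fold change 0.98, adjusted p = 9e-05 by limma). Trem1, an amplifier of myeloid inflammation, had 88, 91 and 107 against 25 to 57 (log2 fold change 1.05, adjusted p = 0.0479 by limma, 0.0587 after scaling by the median of ratios), and its call was lost without any 1 of the 3 Momelotinib libraries and in 4 of the 6 fits without 1 DMSO library. Klf16, a zinc finger factor, rose by 1.23 on the log2 scale and was called with any 1 library left out. Fkbpl, Flrt3 and Snhg15 rose by 1.20, 1.12 and 1.11, and lost their calls in 6, 1 and 7 of the 9 fits without 1 library, those without Momelotinib replicate 2 included.

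**Figure D4:**
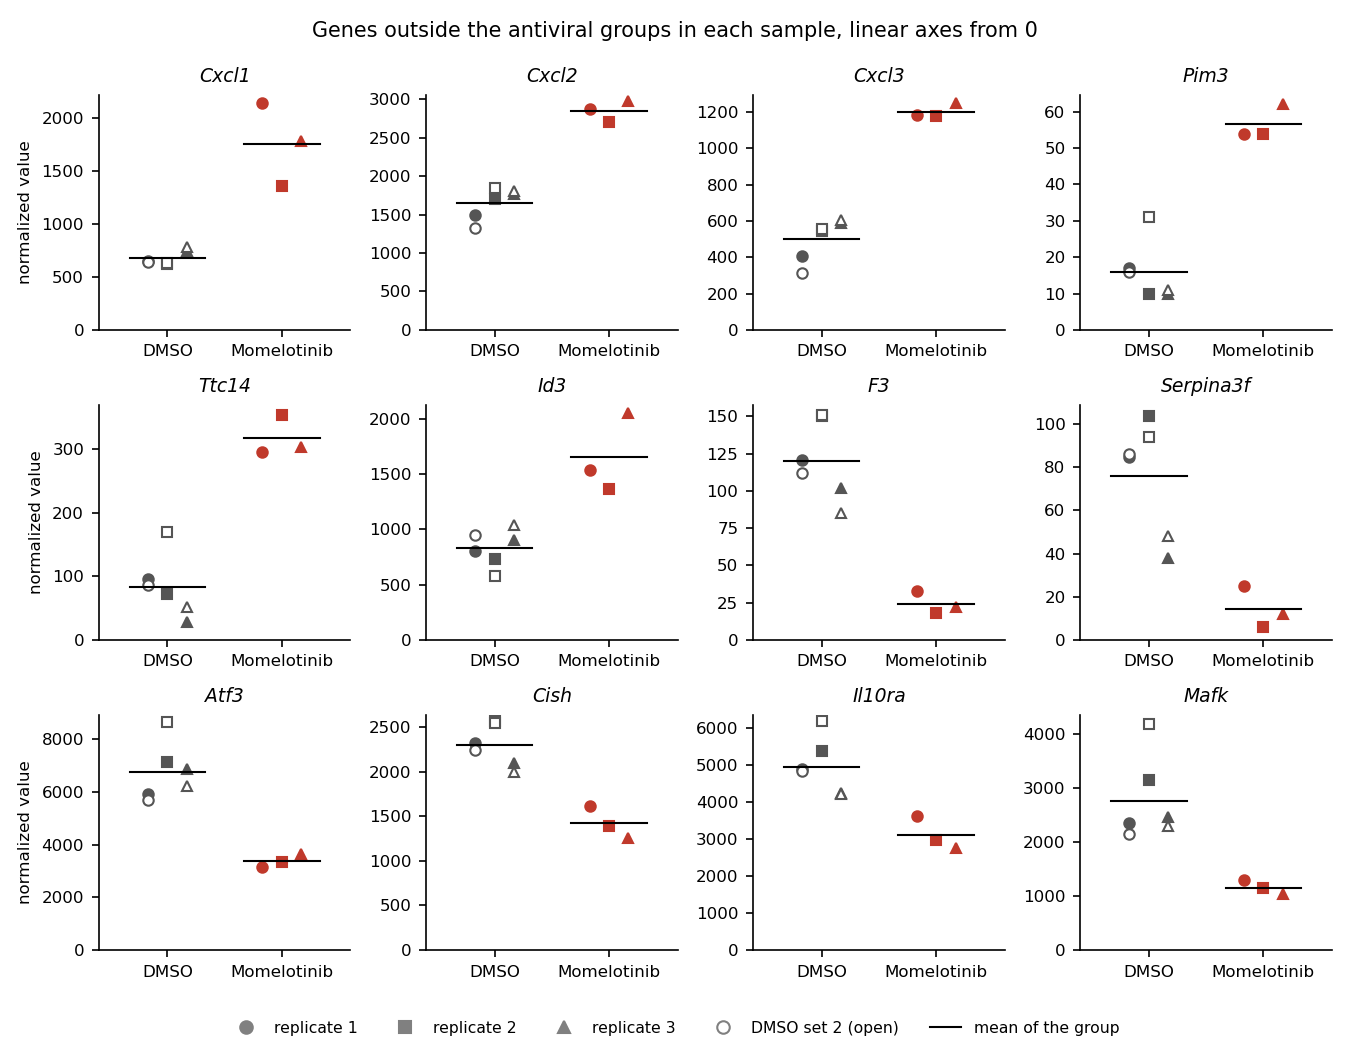
Normalized value (y axes, linear from 0) of 12 DEGs outside the interferon list in each of the 6 DMSO and 3 Momelotinib samples. Symbols are as for the interferon genes, with circles, squares and triangles for replicates 1, 2 and 3, open symbols for DMSO set 2 and black lines for group means, and the 2 groups overlap in none of these genes.

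Further gene groups of the macrophage held few or no DEGs. Of 19 genes of MHC class I presentation 0 passed the test, with Tap1, the peptide transporter, nearest to it (log2 fold change -0.73, adjusted p = 0.0808 by limma, 0.0415 with the replicate block). The 8 class II genes all lay above 0, with a median of 0.42 and 0 DEGs. Of all genes 31% lay below 0, and their median was 0.11. Within replicate 1, 4 of the 8 class II genes were below the DMSO mean, and 0 were within replicate 2 or 3. All 16 tested genes of the ATF4 stress response had log2 fold changes above 0 too, with a median of 0.32 and 0 DEGs. After scaling by the median of ratios their median was 0.23, and 1 of them was below 0. With the block Slc7a11, Atf4 and Asns rose, as did 1.09% of all genes. Of the 12 NRF2 genes 0 passed, and with the block Nfe2l2, which encodes NRF2, rose (log2 fold change 0.47, adjusted p = 0.000895 by limma with the block). The lists for the TLR4 receptor complex (11 genes), MAP kinase feedback (10), lysosome and autophagy (20), sterol synthesis (21), glycolysis and hypoxia (18), JNK kinases (4) and the cell cycle (20) each held 0 DEGs, and Cdkn1b of the last rose with the block.

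Momelotinib was then set directly against 2 other CKIs of the series, Filgotinib, a JAK1-selective inhibitor, and Midostaurin, a multi-kinase inhibitor used against FLT3 that also binds TBK1. The concentrations of the 3 compounds differed, each was given to 3 samples, and p-values were adjusted over genes within each of these 2 contrasts. The study chose the concentration of Momelotinib for IKBKE and that of Midostaurin for TBK1. It reports that Momelotinib bound TBK1 at a higher concentration than the one used. Against Filgotinib, 1185 genes (9.32%) were higher and 38 (0.299%) lower with Momelotinib, or 660 and 123 after scaling by the median of ratios. With the replicate block 1889 (14.9%) were higher and 68 (0.535%) lower, 15.4% in all. The total of 1223 (9.62%) without the block was 571 without Filgotinib replicate 1, and 766 or 802 without Momelotinib replicate 2 or 3. Against Midostaurin, 16 (0.126%) were higher and 21 (0.165%) lower, and 29 (0.228%) and 54 (0.425%), 0.653% in all, with the replicate block. The total of 37 (0.291%) was 17, 16 or 23 without Midostaurin replicate 1, 2 or 3 and 29, 17 or 20 without Momelotinib replicate 1, 2 or 3.

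Ifnb1 separated the 3 compounds. It had 55, 65 and 58 with Momelotinib, 233, 183 and 137 with Filgotinib and 11, 7 and 12 with Midostaurin, and no sample of 1 compound overlapped another. The log2 fold change of Momelotinib was -1.59 against Filgotinib (SE 0.46, adjusted p = 0.0131 by limma, 0.113 without Filgotinib replicate 1) and 2.48 against Midostaurin (SE 0.46, adjusted p = 0.000526 by limma). Rsad2, downstream of IFNAR as well as IRF3, had 15453, 9492 and 9389 with Momelotinib, 15351, 11488 and 11473 with Filgotinib and 4672, 3097 and 3921 with Midostaurin. Momelotinib and Filgotinib overlapped in Rsad2, while Momelotinib was higher than Midostaurin by 1.53 on the log2 scale (adjusted p = 0.00703 by limma, 0.121 without Midostaurin replicate 2 and 0.151 without Momelotinib replicate 1).

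Within the interferon list, 4 of 109 genes (3.67%) differed from Filgotinib, a smaller share than the 9.62% of all genes. The shares were close to each other with only the compared groups in the fit, for which the counts are given at the end. Ifnb1 was lower with Momelotinib, and Cd274, Nlrc5, the transactivator of MHC class I genes, and Il27, a cytokine subunit, were higher. Cd274 had 2253, 1173 and 1056 with Momelotinib against 654, 443 and 525 with Filgotinib (log2 fold change 1.40, adjusted p = 0.0023 by limma). Nlrc5 had 198, 175 and 150 against 85, 86 and 61 (log2 fold change 1.17, adjusted p = 0.00668), and Il27 had 3486, 1701 and 1760 against 1041, 708 and 860 (log2 fold change 1.35, adjusted p = 0.0254 by limma). The call of Cd274 was lost without Momelotinib replicate 1, that of Nlrc5 without Filgotinib replicate 3, and that of Il27 without Momelotinib replicate 1 or Filgotinib replicate 2 or 3 and, with an adjusted p of 0.0763, after scaling by the median of ratios. The feedback inhibitor Socs1 had 1649, 1535 and 1168 against 181, 314 and 258 and was higher by 2.55 (adjusted p = 0.00314 by limma). Ttc14, at 16, 40 and 23 with Filgotinib, had the largest difference (3.63), and Cxcl3 was higher than with Filgotinib by 0.70 (adjusted p = 0.0412 by limma, 0.140 after scaling by the median of ratios, and lost when any 1 of the 6 libraries other than Filgotinib replicate 3 was left out). Among the genes lower with Momelotinib were the splicing kinase Clk1, with 225, 258 and 262 against 687, 977 and 387, and Crebzf, which differed by -1.36 and -1.42 on the log2 scale. Leaving out Filgotinib replicate 1 or 2 or Momelotinib replicate 1 ended the call of Clk1, and leaving out Momelotinib replicate 2 that of Crebzf.

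Against Midostaurin, 3 of the 109 genes of the interferon list (2.75%) differed, all higher with Momelotinib, as 0.126% of all genes were. Beside Ifnb1 and Rsad2 this was Oasl1, an OAS-like antiviral protein, with 6230, 4523 and 3390 against 2565, 1987 and 1452 (log2 fold change 1.23, adjusted p = 0.00158 by limma, lost without Midostaurin replicate 3 or Momelotinib replicate 1). Sgk1 and Atf3, which fell against DMSO, were higher than with Midostaurin by 1.31 (adjusted p = 3.55e-11) and 0.82. Ccl2 was higher by 0.93. Myc, the growth regulator, was lower with Momelotinib, at 478, 534 and 603 against 1382, 1492 and 1226 (log2 fold change -1.34, adjusted p = 0.00106 by limma). The largest differences downward were Gfpt2 of the hexosamine pathway at -2.07, the receptor Gpr35 at -2.01 and Phlda1 at -1.83. The call of Gpr35 was lost without Midostaurin replicate 2 or 3 or Momelotinib replicate 1, and that of Gfpt2 without any of these libraries or Midostaurin replicate 1 or Momelotinib replicate 3.

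**Figure D5:**
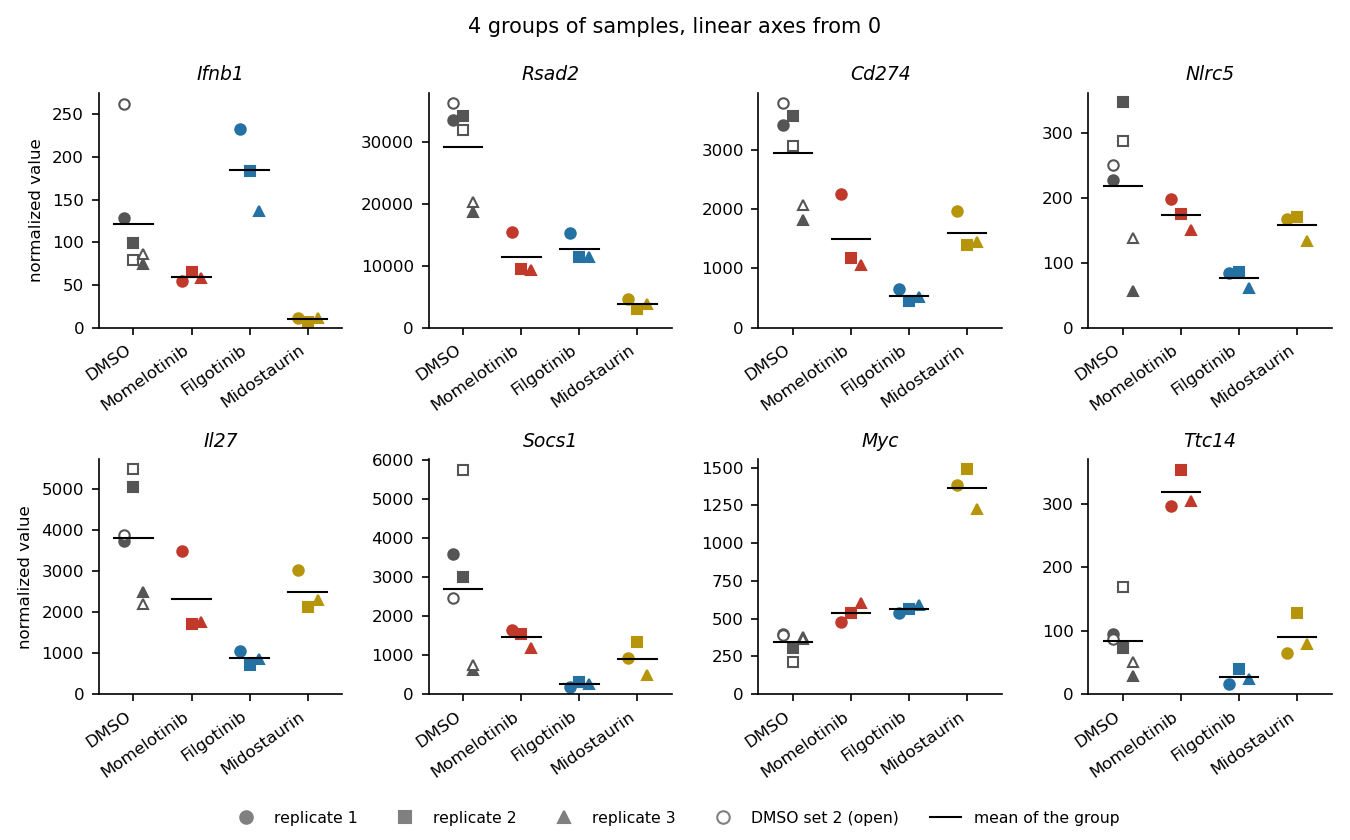
Normalized value (y axes, linear from 0) of 8 genes in the DMSO, Momelotinib, Filgotinib and Midostaurin samples. Symbols mark replicates 1 to 3 as circle, square and triangle, open symbols are DMSO set 2 and black lines are group means, and Ifnb1 is highest with Filgotinib among the CKIs (137 to 233) and lowest with Midostaurin (7 to 12).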

How the data were processed

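RNA-seq libraries were made from polyadenylated RNA by a SMART-seq2 protocol with Tn5. The authors aligned reads to mm10 with TopHat2 2.1.1, kept at most 1 alignment for each read, removed blacklisted regions with bedtools 2.29.2, counted reads on exons of curated RefSeq genes in R 3.6.2 and scaled the samples on genes with invariant counts, testing with DESeq2 without its own normalization. The deposited values are these scaled counts rounded to whole numbers, treated as a score and called normalized values. Counting was not stated to use strand, and no unassigned columns were present (0).

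Values were transformed to log2(value + 1) and fitted for all 59 groups in 1 model with limma 3.58.1 (R 4.3.3, variance trend), and p-values were adjusted by Benjamini-Hochberg over the 12714 genes tested, with a threshold of 0.05. The fitting step was checked on simulated data. An estimate of each sample's scale gave 10.4 M to 13.6 M reads counted on exons per library, so low values carry large counting errors. Labels gave groups and replicate numbers, and the methods name independent biological replicates. Deviations of same-numbered Momelotinib and DMSO samples correlated at 0.163 to 0.449 and those of other pairs at -0.314 to 0.0593. Deviations within a set of 3 sum to 0, so the lower values of the other pairs follow from the higher ones. Same-numbered Momelotinib and Filgotinib samples correlated at 0.226 to 0.391, but replicate 2 of Filgotinib and of DMSO set 2 at -0.104, so pairing by number did not hold equally in all groups. Among the 9 samples, 0 pairs held identical values.

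The members and lists were chosen with earlier results of these data known. Named genes are list members past the test and those nearest to it, the 15 largest non-overlapping rises and falls, 5 each way per direct contrast, genes the study names and known target kinases. Sgk1, Pml and Ptger2 were named, and the promoters of Irf1, Irf8 and the Cxcl genes shown, after their values were seen. Alternatives were other pseudocounts, filters and scalings, no variance trend, the replicate block, each DMSO set alone, only the compared groups, and single libraries left out. Exact tests were run with NumPy 2.4.6 and figures drawn with matplotlib 3.10.9 in Python 3.11.15 (pandas 2.3.3).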

Additional observations from a re-analysis of the deposited data

Results flagged for a closer look

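Among the 133 genes checked for a DMSO sample apart from the other 5, 5 had a gap to the nearest sample that took more of the range of the 6 DMSO samples than Dixon's 95% critical value allows, and chance alone flags about 5% of such groups. Replicate 2 of DMSO set 2 was the sample apart in Triap1 (gap 0.783 of the range, normalized value 225), Trem1 (0.711, normalized value 25), Rarg (0.645, normalized value 258) and Mideas (0.636, normalized value 150), and replicate 1 of DMSO set 2 in Plk2 (0.661, normalized value 1394). All 5 genes were DEGs, as were 100 of the 133 genes checked.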

How the results depend on the processing

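All 100 DEGs kept their direction under every alternative in which they were tested, but their number depended on how the replicate spread was estimated. The 48 higher and 52 lower DEGs became 139 and 87 with the replicate block, 196 and 114 with the block and the mitochondrial share, 2 and 3 (Adora2b, Cxcl1, Atf3, F3 and Sgk1) with only the compared groups in the fit, 18 and 15 against DMSO set 1 alone, 19 and 24 against set 2 alone, and 13 and 15 at a log2 fold change of at least 1. Scaling by the median of ratios gave 24 and 74, and no filter 202 and 57. Leaving out 1 library gave 11 to 58 higher and 15 to 65 lower, and 21 DEGs were called in each of these fits. The 5 interferon genes that fell were 12 with the block, 19 with the block and the mitochondrial share, 8 with the median of ratios, 2 against either DMSO set alone or at a log2 fold change of at least 1, 0 with only the compared groups, and 1 to 11 with 1 library left out. Against Filgotinib the 1223 DEGs were 470 at a log2 fold change of at least 1, 783 with the median of ratios, 1957 with the block, 2022 with the block and the mitochondrial share, and 571 to 1099 with 1 library left out. Its 4 interferon genes were 8 with the block and the mitochondrial share, 11 with only the compared groups, and 2 to 4 with 1 library left out. Those 11 were out of 109 list members, while 1343 of all 12714 genes were called against Filgotinib in that fit. Against Midostaurin the 37 DEGs were 24, 99, 83, 65 and 264 at a log2 fold change of at least 1, with the block and the mitochondrial share, with the block, with only the compared groups and with no filter, and 16 to 29 with 1 library left out. The log2 fold change of Ifnb1 stayed between -1.02 and -0.73 and, with 1 library left out, between -0.98 and -0.62. The cause of these differences was not tested. With the block, 12 named genes were called in addition and 0 were lost. Signs turned in 6 genes far from the threshold: the log2 fold change was -0.0500 in Nfkbia, -0.0396 in Tyk2 and -0.0081 in Ikbke with the median of ratios, 0.0192 in Jak1 against set 1 and -0.0288 in Tyk2 against set 2. With 1 library left out it ran from -0.446 to 0.0352 in Jak2, from -0.126 to 0.0404 in Jak3, from -0.0337 to 0.144 in Tyk2 and from -0.0893 to 0.222 in Ikbke. Depth limits what can be said of genes with low normalized values, such as Pim3, Amotl2 and Fbxo45.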
